A study of Drosophila melanogaster with 4 samples.

Results

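H4K20me1 regions on chromosome 4 and on the 6 assembled heterochromatin sequences (2LHet, 2RHet, 3LHet, 3RHet, XHet and YHet) were described in Drosophila melanogaster larvae. Members are the authors' regions of significant enrichment whose sequence name is 4 or one of these 6. There were 341 of 6478 regions in ChIP replicate 1 (132 on chromosome 4 and 209 on the Het sequences), 68 of 5209 in ChIP replicate 2 (44 and 24) and 125 of 5318 in the list made for the series as a whole (69 and 56). The animals were wild-type Oregon-R third-instar larvae, a laboratory strain, and all samples came from their nuclei. The study has 2 ChIP samples, made with one lot of an antibody to histone H4 monomethylated at lysine 20, and 2 input samples, each paired with 1 ChIP. There is 1 condition, so the only spread is between the ChIP replicates, and no test between groups was possible. Neither the sex of the larvae nor whether the ChIP samples were collected separately is stated, so the spread between replicates may be technical.

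H4K20me1 is placed by the methyltransferase PR-Set7 and is the substrate from which Suv4-20 makes the higher methylation states; it is known for roles in chromosome compaction and the cell cycle. Chromosome 4, the dot chromosome, carries heterochromatin proteins such as HP1a and methylation of H3 lysine 9 along its gene-bearing arm, and is also bound by the chromosome-specific protein POF, yet many of its genes are active. The Het sequences are the assembled pieces of the heterochromatin around the centromeres and of the Y chromosome, rich in transposable elements and other repeats. A gene table of Release 6 lists 80 protein-coding genes on chromosome 4, among them ci, the transcription factor of Hedgehog signalling, and ey, a regulator of eye development. The regions are on FlyBase release 5, so none was assigned to a gene.

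Chromosome 4 was the most H4K20me1-covered chromosome in replicate 1 and less covered than any of the 5 major arms in replicate 2. Of its 1351857 bp, 46.1% lay in enriched regions in replicate 1, 12.0% in replicate 2 and 26.2% in the series-wide list. The mean of the replicates was 29.1% ± 24.2 (SD, n = 2), against 24.5% ± 1.46 (SD, n = 2) on the major arms together. In kilobases, 624 kb were enriched in replicate 1 and 162 kb in replicate 2. The density of regions was 97.6 per Mb in replicate 1 and 32.5 per Mb in replicate 2, against 50.6 and 43.0 on the major arms. Replicate 1 therefore exceeded replicate 2 on chromosome 4 by a ratio of 3.85 in covered bases, and by 1.09 on the major arms. Each value comes from 1 library, and read depth is unknown.

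**Figure D1:**
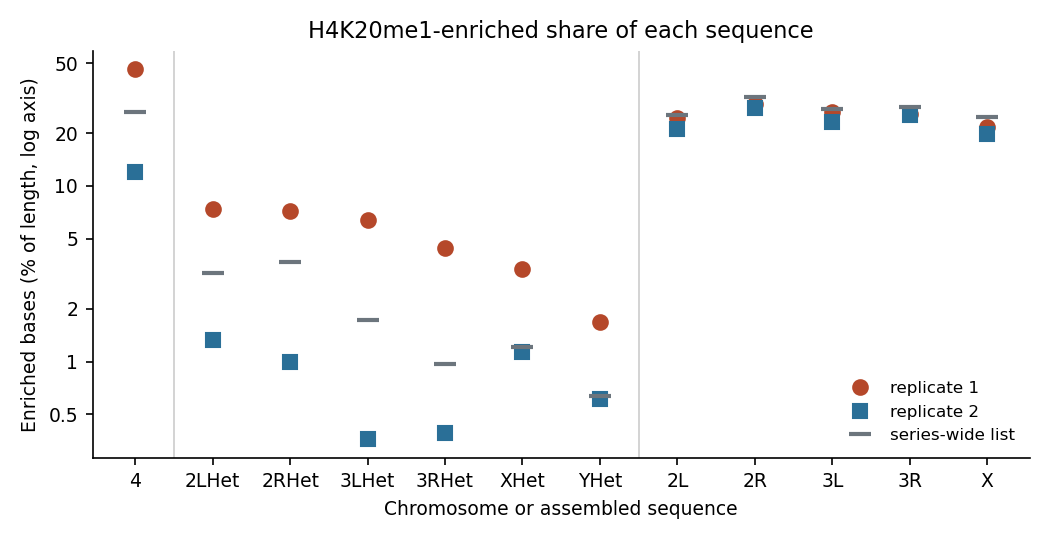
Percent of each chromosome or assembled sequence (x axis) lying in enriched regions (y axis, log scale), with 1 point per list: circles for replicate 1, squares for replicate 2 and bars for the series-wide list. The replicates lie close together on 2L, 2R, 3L, 3R and X and apart on chromosome 4 (46.1% and 12.0%) and on the 6 Het sequences.

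Stretches of the major arms as long as chromosome 4 give the scale of these values. The 5 arms hold 86 such windows, which were covered over 4.51 to 43.1% in replicate 1 (median 25.4%) and 0.98 to 41.4% in replicate 2 (median 22.6%). None of the 86 reached the share of chromosome 4 in replicate 1, and 6 lay at or below its share in replicate 2. The ratio of replicate 1 to replicate 2 had a median of 1.08 over the windows and was at least that of chromosome 4 in 2 of them. High ratios occurred at some centromere ends. These ends lie on the same arms and can overlap the 86 windows, so they are not added cases. In the last or first 1351857 bp of the arm, coverage was 19.3% and 2.80% on 2R (ratio 6.89), 6.03% and 0.58% on 3L (10.5) and 15.3% and 5.41% on 2L (2.83). On 3R it was 33.3% and 30.7% (1.08), and on X 9.29% and 6.49% (1.43). The highest ratio among the 86 windows was 7.76, below that of the 3L end, so that end was not one of them. The 86 windows thus leave out part of the arms. The windows serve as a description, and no test was made.

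Enriched regions were spread along the whole of chromosome 4 in replicate 1, with its 3 most covered bins of 100 kb before position 600 kb. Over the 13 full bins the covered share ran from 29.1 to 84.3% in replicate 1 (median 39.1%) and from 3.87 to 29.4% in replicate 2 (median 11.4%). Replicate 1 was higher in 13 of 13 bins, and its lowest bin was close to the highest bin of replicate 2. The most covered bin in replicate 1, from 100 to 200 kb, had 84.3%, against 18.3% in replicate 2 and 55.5% in the series-wide list. The most covered bin in replicate 2, from 500 to 600 kb, had 29.4%, against 73.8% in replicate 1. From 300 to 400 kb the shares were 68.4% and 19.5%, and from 1000 to 1100 kb they were 59.0% and 15.0%. These 4 bins were the highest in replicate 1 and also the highest in replicate 2. Across the 13 bins Spearman's rho between replicates was 0.62; neighbouring bins share regions and each replicate is 1 library, so this is a description. The least covered full bin was 800 to 900 kb in replicate 1 (29.1%, against 11.4%) and 1100 to 1200 kb in replicate 2 (3.87%, against 39.1%).

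**Figure D2:**
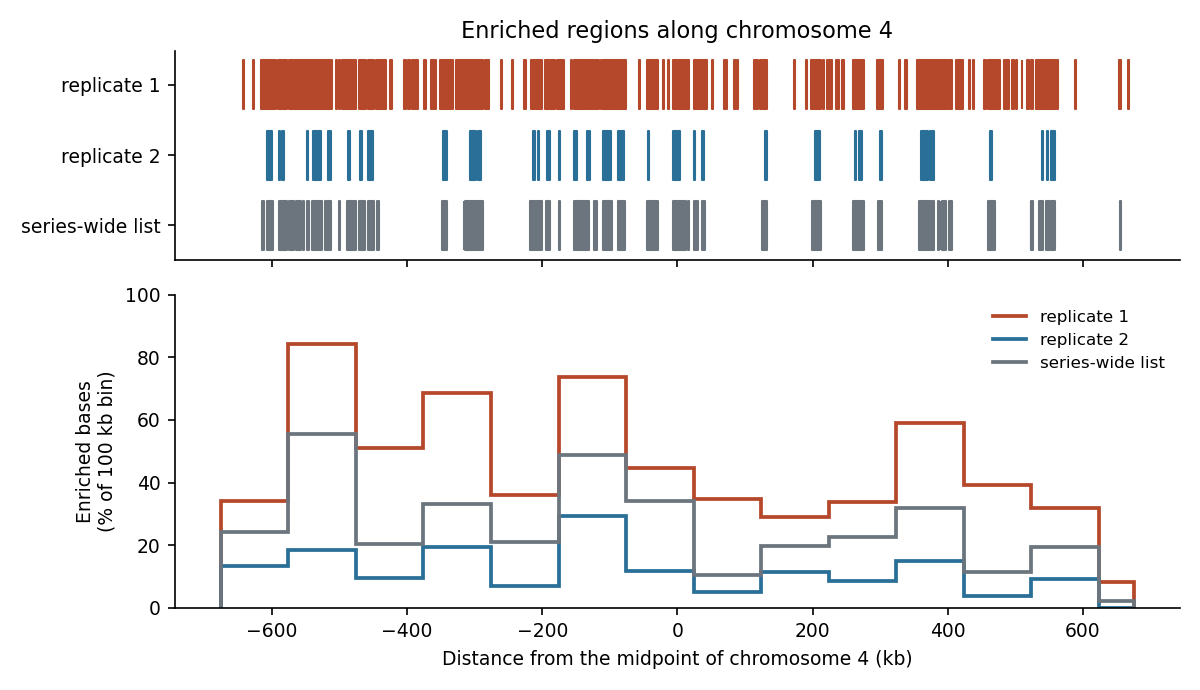
Top: enriched regions of each list along chromosome 4, drawn to scale against distance from its midpoint (kb). Bottom: percent of each 100 kb bin lying in enriched regions; replicate 1 lies between 29.1 and 84.3% in the 13 full bins, replicate 2 between 3.87 and 29.4%, and the shorter last bin is the lowest in each list.

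The high-coordinate end of chromosome 4 was sparse, with 2, 0 and 1 regions in the last 51857 bp in replicate 1, replicate 2 and the series-wide list. The first region began at 33486 in replicate 1, 68559 in replicate 2 and 60358 in the series-wide list, and the last ended at 1344218, 1234160 and 1331848. Inside the chromosome the longest stretch without a region in replicate 1 ran over 62.8 kb from 1266233 to 1329003, and it was empty in the other 2 lists as well. The longest in replicate 2 ran over 102.5 kb from 225874 to 328377. There replicate 1 had 18 regions wholly or partly inside, over 40.7 kb, and the series-wide list had 3 over 4.50 kb. The longest empty stretch of the series-wide list, 96.1 kb from 1234587 to 1330715, held 6.17 kb of replicate 1 regions and none of replicate 2.

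Regions of chromosome 4 lay closer together in replicate 1 than in replicate 2. The median gap between neighbours was 2.06 kb in replicate 1 and 10.4 kb in replicate 2, against 3.11 and 2.99 kb on the major arms. Gaps under 1 kb made up 25.2% of 131 gaps in replicate 1 and 16.3% of 43 in replicate 2, against 28.4% and 28.8% on the major arms. Joined over gaps of up to 5 kb, the regions formed 44 groups in replicate 1, of which 21 were single regions, and 29 in replicate 2, of which 16 were single. The group with most regions in replicate 1 held 14 over 81.8 kb, from 517972 to 599726. The next held 12 over 74.0 kb, from 170929 to 244893, and 9 over 71.7 kb, from 324891 to 396621. The longest group held 8 regions over 103.9 kb, from 60311 to 164234. In replicate 2 no group held more than 3 regions, and the longest spanned 19.1 kb, from 1036543 to 1055688. The density of regions differed as well (97.6 and 32.5 per Mb), and clustering beyond that density was not tested. Groups were not counted on the major arms.

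Median region lengths on chromosome 4 were below those of the major arms in each replicate and above them in the series-wide list. The median was 2312 bp in replicate 1 (1302 to 31519 bp), 2839 bp in replicate 2 (1301 to 12256 bp) and 4245 bp in the series-wide list (1001 to 15465 bp). On the major arms the medians were 2596, 3100 and 3179 bp, with maxima of 88039, 113365 and 113957 bp. A maximum depends on the number of regions, which was far larger on the arms. Regions of at least 10 kb numbered 19 of 132 in replicate 1, 3 of 44 in replicate 2 and 5 of 69 in the series-wide list. On the major arms they numbered 675 of 6028, 651 of 5120 and 872 of 5146. The 5 longest of replicate 1 were 17.1 to 31.5 kb long. The longest of all, from 101531 to 133049, met a single replicate 2 region that covered 4.20% of it. In contrast, the second, from 366676 to 388857 (22.2 kb), was covered over 61.0% by 3 replicate 2 regions. Replicate 2 covered between 49.0 and 62.7% of the other three, from 668673 to 690012, from 1029959 to 1048539 and from 133823 to 150875.

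Regions were ranked within each list by the authors' score, a log2 value with an unknown offset in each list. Chromosome 4 regions ranked high in replicate 1, with a median at the 80.9th percentile of that list and 117 of 132 in its upper 50%. They ranked near the middle in replicate 2, with a median at the 44.6th percentile and 19 of 44 in the upper 50%. In the series-wide list the median percentile was 66.2. The high rank in replicate 1 was seen in short and in long regions. Among regions under 2 kb the median percentile was 71.1 on chromosome 4 (55 regions) and 23.4 on the major arms (2165 regions), and at 5 kb or more it was 96.5 (35 regions) and 77.7 (1592 regions). In replicate 2 the corresponding values were 7.51 (11 regions) and 13.5 (1279 regions) under 2 kb, and 77.1 (7 regions) and 80.3 (1582 regions) at 5 kb or more. How the score enters the authors' calling is unknown, and its part in the difference of coverage between the replicates was not tested.

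The highest scores on chromosome 4 marked some of the same places in both replicates. The highest of replicate 1 was 2.67, from 89472 to 97935 (8.46 kb), 43.0% covered by a replicate 2 region at the 48.6th percentile. The second, 2.12, was a region of 1.32 kb from 33486 to 34805, the first of the chromosome, with no region in either other list. The next, 1.98, ran from 668673 to 690012 (21.3 kb) and contained the highest-scored region of replicate 2, from 669967 to 680432 (10.5 kb, score 1.68). The highest-scored series-wide region, from 669304 to 681372 (12.1 kb, score 1.83), lay at the same place. The next in replicate 2, from 879827 to 887666 (7.84 kb, score 1.37), and the following one, from 328378 to 332143 (3.77 kb, score 1.35), were enriched in replicate 1 over their whole length. The latter lay inside the replicate 1 region with the fourth highest score, 1.95, from 327891 to 341131. The fifth in replicate 1 ran from 710981 to 716846 (score 1.94) and was covered over 61.0% by replicate 2. The remaining 2 of the 5 highest in replicate 2, from 1052766 to 1055688 (1.21) and from 805080 to 808657 (1.15), also lay wholly in replicate 1 regions. Whatever their score, 39 of the 44 replicate 2 regions did so, so this containment is not particular to high scores.

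Replicate 2 on chromosome 4 was almost wholly contained in replicate 1. Replicate 1 covered 98.2% of the 162005 bp that replicate 2 called, while replicate 2 covered 25.5% of replicate 1. The shared 159 kb made up 25.4% of the bases enriched in either, against 63.8% on the major arms. All 44 replicate 2 regions met a replicate 1 region (exact Clopper-Pearson 95% interval 92.0 to 100%), where the share over the whole replicate 2 list was 82.9%. In the other direction 37 of 132 did (28.0%, 20.6 to 36.5%), against 66.4% over the whole replicate 1 list. These intervals reflect the number of regions and no other error. Bases enriched in replicate 2 alone came to 2952 bp, and those in replicate 1 alone to 465 kb.

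The places enriched in both replicates numbered 48, with a median length of 2567 bp. The longest, 12.3 kb from 565981 to 578236, was a whole replicate 2 region inside one replicate 1 region. Next came 669967 to 680432 (10.5 kb), 1036543 to 1046961 (10.4 kb), 879827 to 887666 (7.84 kb), 140626 to 148094 (7.47 kb) and 68559 to 76023 (7.47 kb). The remaining 4 of the 10 longest were 381044 to 385820, 1229432 to 1234160, 369439 to 373884 and 218627 to 223071, each between 4.45 and 4.78 kb. All 10 lay wholly in the series-wide list. They were scattered over the chromosome from 68559 to 1234160, and each lay inside a single, longer region of replicate 1.

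The replicate 1 regions extended well past the replicate 2 regions they contained. Of the 44 replicate 2 regions, 39 lay wholly inside 1 replicate 1 region (88.6%), against 30.0% of the 4237 met on the major arms. The replicate 1 regions at these places were longer than the replicate 2 region by a median factor of 3.34, against 1.26 on the major arms. Their median extension was 2822 bp on the left and 3072 bp on the right, against 451 and 412 bp. These medians count each replicate 2 region. As 10 replicate 1 regions held 2 or more, an extension may include another replicate 2 region. Summed, the 37 replicate 1 regions that met replicate 2 held 379 kb, and the 44 replicate 2 regions held 162 kb. Of the bases enriched in replicate 1 alone, 220 kb lay in regions that met replicate 2, and 245 kb in the 95 regions that met none.

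Long replicate 1 regions of chromosome 4 met replicate 2, and short ones seldom did. At 10 kb or more 17 of 19 did (89.5%, exact interval 66.9 to 98.7%), between 5 and 10 kb 11 of 16, between 2 and 5 kb 8 of 42 and under 2 kb 1 of 55 (1.82%, 0.046 to 9.72%). On the major arms the shares in these classes were 99.7, 96.0, 77.1 and 42.8%. As 1 shared bp was enough, a long region had more room to meet replicate 2, and this was not adjusted for. The single short one, named after its values were seen, ran from 546891 to 548425. The 37 regions that met replicate 2 were long and high-scored, with medians of 9271 bp and a score percentile of 96.1. The 95 that did not had medians of 1853 bp and a score percentile of 76.0. Of these 95, 21 lay within 5 kb of a replicate 2 region and 35 lay more than 20 kb from one. The longest without a replicate 2 base ran from 352268 to 365590 (13.3 kb, 96.0th percentile), 39.2% of which was in the series-wide list, and from 529099 to 540200 (11.1 kb), 92.3% of which was. The following ones were 6.42 to 6.92 kb long, at 1066905 to 1073820, 1060214 to 1066643 and 1146830 to 1153251; the last of these had no base in the series-wide list.

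**Figure D3:**
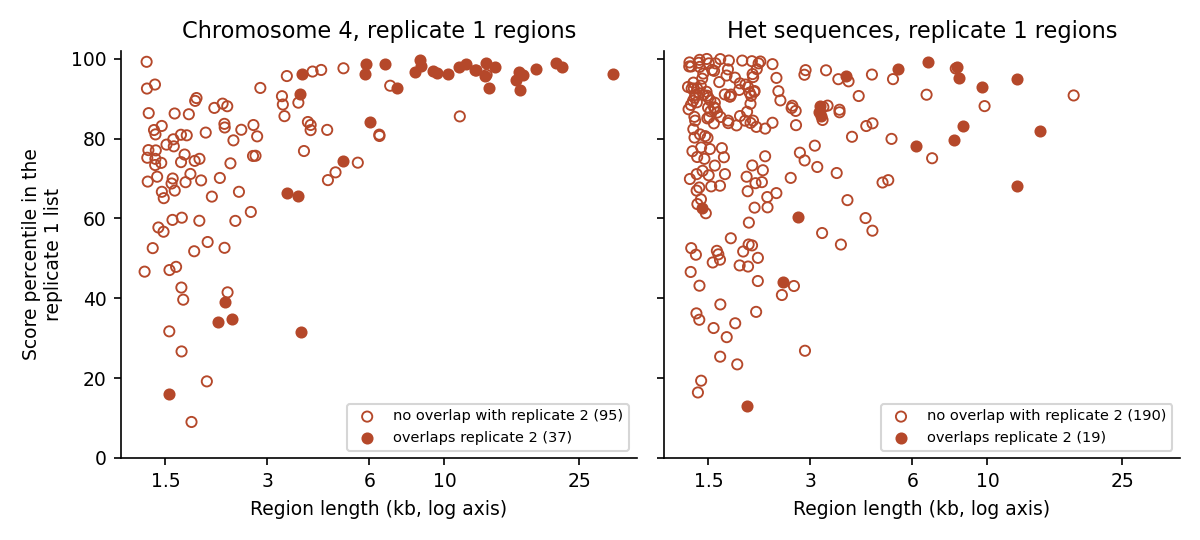
Each point is 1 replicate 1 region, by its length (x axis, kb, log scale) and the percentile of its score in the whole replicate 1 list (y axis); filled points overlap a replicate 2 region. On chromosome 4 (left) 37 of 132 points are filled, most of them at the long, high-scored end, and on the Het sequences (right) 19 of 209 are filled, while short unfilled points reach the highest percentiles.

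The series-wide list on chromosome 4 lay between the replicates. Of its 69 regions, 37 overlapped both replicates (53.6%, against 61.5% over the whole series-wide list) and 32 overlapped replicate 1 alone. None overlapped replicate 2 alone or neither. The whole-list shares of the classes other than both were not computed. The 37 were longer (median 6833 bp, against 2388 bp for the 32) and scored higher (median 0.94, against 0.48). By bases, replicate 1 alone accounted for 53.8% of the list, both replicates for 44.7%, replicate 2 alone for 0.39% and neither for 1.11%. On the major arms these shares were 14.2, 69.2, 12.2 and 4.39%. The list held 99.6% of the bases enriched in both and 41.0% of those enriched in replicate 1 alone. Its longest region, from 134436 to 149900 (15.5 kb), was covered over its whole length by replicate 1 and over 69.2% by replicate 2.

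The Het sequences were covered far less than chromosome 4 in both replicates, and the replicates differed there by a larger ratio. Over their 9.28 Mb, 5.96% was enriched in replicate 1 and 0.66% in replicate 2 (ratio 9.05), and 2.22% in the series-wide list. The mean of the replicates was 3.31% ± 3.75 (SD, n = 2). Each replicate was below its own value on the major arms, 25.5% in replicate 1 and 23.4% in replicate 2. How much of these sequences can hold placed reads was not given in the sources used here, so a low share cannot be told apart from a lack of placed reads.

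By sequence, 2LHet was covered over 7.41% in replicate 1 and 1.33% in replicate 2, and 2RHet over 7.24% and 0.99%. On 3LHet the shares were 6.40% and 0.36%, and on 3RHet 4.42% and 0.39%. The smallest shares in replicate 1 were those of XHet, at 3.37% against 1.13%, and YHet, at 1.68% against 0.61%. Replicate 1 was higher on 6 of 6 sequences, with ratios from 2.77 on YHet to 17.7 on 3LHet, but 2LHet, XHet and YHet rest on 8, 4 and 4 replicate 1 regions and on 2, 1 and 1 replicate 2 regions.

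Het regions were far apart, with a few local groups. The median gap within a sequence was 17.5 kb in replicate 1 and 82.0 kb in replicate 2, and gaps under 1 kb made up 7.88% of 203 gaps in replicate 1 and 3 of 18 (16.7%) in replicate 2. On 2RHet, which had 77, 12 and 27 regions in replicate 1, replicate 2 and the series-wide list, the most covered 100 kb bins of replicate 1 lay from 3100 to 3200 kb (42.7%, against 1.34% in replicate 2) and from 200 to 300 kb (31.8%, against 2.93%). In replicate 2 the most covered bin lay from 2700 to 2800 kb (13.1%, against 18.5% in replicate 1). There replicate 2 had 5 regions within 20.3 kb, from 2777464 to 2797769. Of the 32 full bins of 2RHet, 6 were empty in replicate 1, 24 in replicate 2 and 20 in the series-wide list.

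On 3LHet the regions of replicate 1 were densest at the high-coordinate end. The bin from 2400 to 2500 kb was covered over 34.2% in replicate 1 and 1.73% in replicate 2, and the shorter last bin over 27.8% and 0. Replicate 1 had 68 regions on this sequence and replicate 2 had 4. On 3RHet, with 48 and 4 regions, the most covered bin in replicate 1 lay from 1800 to 1900 kb (14.7%, against 2.95%) and that in replicate 2 from 2400 to 2500 kb (5.11%, against 10.0%). All 4 replicate 2 regions of 3RHet lay between 1820433 and 2482119. In replicate 1, 3 of 25 full bins of 3LHet and 1 of 25 of 3RHet were empty, against 21 and 22 in replicate 2.

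**Figure D4:**
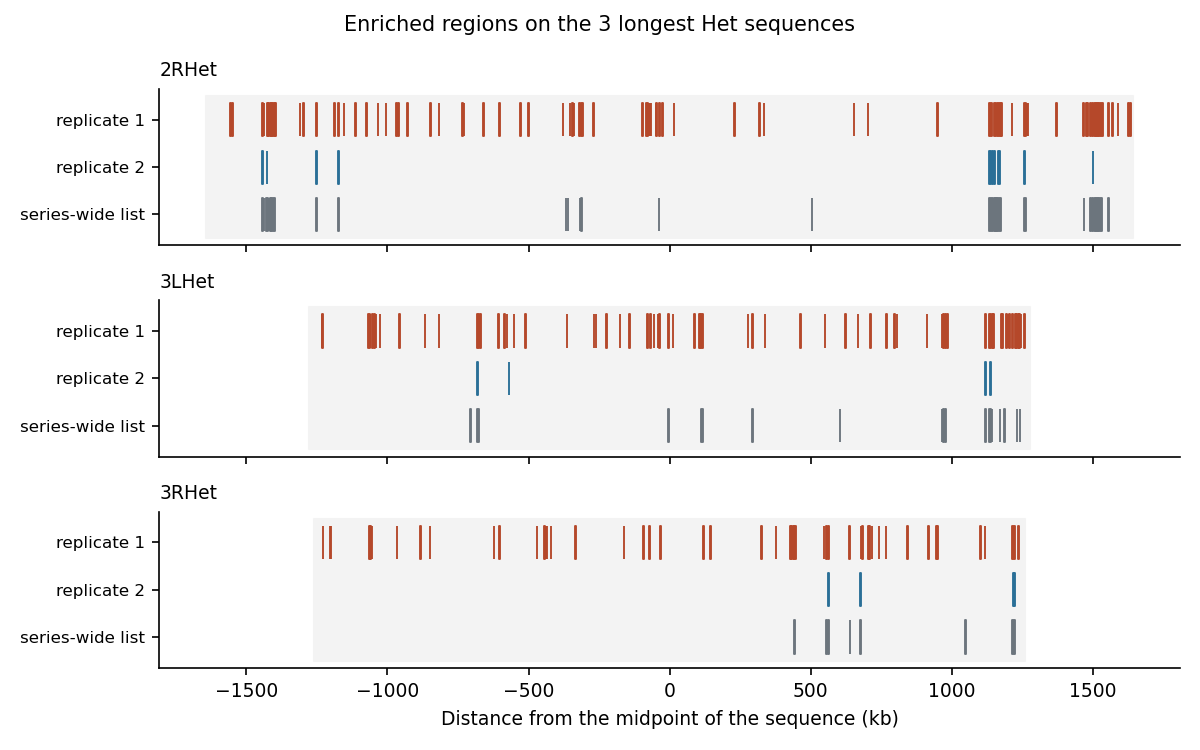
Enriched regions of each list on 2RHet, 3LHet and 3RHet (grey band: the whole sequence), against distance from the midpoint of each sequence (kb); outlines keep the shortest regions visible. Replicate 1 has 77, 68 and 48 regions, replicate 2 has 12, 4 and 4, and all but 2 of these 20 replicate 2 regions overlap a replicate 1 region.

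Although few, the replicate 2 regions of the Het sequences mostly lay on replicate 1 regions, as did those of the whole replicate 2 list. Of the 24, 22 met one (91.7%, exact interval 73.0 to 99.0%), against 82.9% over the whole replicate 2 list, and of the 209 replicate 1 regions 19 met replicate 2 (9.09%, 5.56 to 13.8%), against 66.4%. Of the bases enriched in replicate 2, 88.1% were enriched in replicate 1, and 9.73% in the other direction. The shared 53.8 kb made up 9.61% of the bases enriched in either. The 2 replicate 2 regions with no replicate 1 base, named after their values were seen, were 2788566 to 2790641 on 2RHet and 708409 to 709843 on 3LHet. The former overlapped the longest series-wide region of 2RHet, from 2775870 to 2790586 (14.7 kb), and the latter had a score at the 0.50th percentile of its list.

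The 22 places shared by both replicates were 2 on 2LHet, 11 on 2RHet, 3 on 3LHet, 4 on 3RHet and 1 each on XHet and YHet. On 2RHet the longest were 2807854 to 2814520 (6.67 kb), 2777464 to 2783329 (5.87 kb) and 2901672 to 2905396 (3.73 kb). The second of these is the first region of the group of 5 in replicate 2. On 3LHet they were 594292 to 597903 (3.61 kb), 2397411 to 2399847 (2.44 kb) and 2414262 to 2415993 (1.73 kb). On 3RHet the longest was 1820433 to 1823379 (2.95 kb), followed by a pair at 2479440 to 2482119 and 2476096 to 2478521 inside a single replicate 1 region of 8.48 kb. On 2LHet both replicates were enriched from 26848 to 29856 (3.01 kb) and from 167441 to 169320 (1.88 kb). XHet had its only shared place at 76446 to 78321 (1.88 kb), and YHet at 305854 to 307289 (1.44 kb). On XHet and YHet that place held the sole replicate 2 region and the sole series-wide region of the sequence.

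Replicate 1 regions on the Het sequences were short and high in score. Their median length was 1859 bp, 120 of 209 were under 2 kb, and the median score lay at the 84.5th percentile of the list. Some scores recurred at separate places. The score 1.11727, named after its values were seen, belonged to regions starting at 345600 and 1577393 on 2RHet, 1616051 on 3LHet and 2361104 on 3RHet. Recurrence was not particular to these sequences. Over the whole replicate 1 list the score 0.532311 belonged to 64 regions, 1 of them on the Het sequences. On chromosome 4 the score 0.947348 belonged to regions starting at 1164355 and 1185268. Read counts are unknown, so whether such short, high-scored regions rest on few reads was not tested. Spearman's rho between length and score was 0.02 across the 209 regions, against 0.59 on chromosome 4 and 0.61 on the major arms; regions of 1 list are not independent replicates. Regions under 2 kb had a median percentile of 84.8, against 71.1 on chromosome 4 and 23.4 on the major arms. Between 2 and 5 kb it was 83.6 (70 regions), and at 5 kb or more 90.8 (19 regions). In replicate 2 the 24 regions had a median percentile of 47.2 and were 2099 bp long at the median. By length their median percentile was 20.6 under 2 kb (8 regions), 50.9 between 2 and 5 kb (14 regions) and 51.2 in the 2 longer ones, with a rho of 0.28. Its highest-scored Het regions were on YHet, from 305621 to 307731 (score 1.32), and on 2RHet, from 3145513 to 3146849 (score 1.24), where replicate 1 covered 68.0 and 22.3%.

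The highest replicate 1 score on each Het sequence belonged to a short region found in no other list. On 2RHet the highest was 3.53, from 2593304 to 2594786 (1.48 kb), on 3RHet 3.12, from 924776 to 926400 (1.63 kb), and on 3LHet 2.78, from 44805 to 46216 (1.41 kb). Those of 2LHet (281371 to 282984), XHet (13613 to 15469) and YHet (41971 to 43288) scored 1.42, 1.41 and 2.03. Of the longest replicate 1 region on each sequence, by contrast, 4 of 6 met replicate 2. Those of 2LHet (19319 to 33600, 14.3 kb), 3LHet (593891 to 602018, 8.13 kb) and 3RHet (2474500 to 2482981, 8.48 kb) were covered by replicate 2 over 21.1, 44.4 and 60.2%. That of 2RHet, from 3162621 to 3180587 (18.0 kb), had no replicate 2 base, while 77.7% of it was in the series-wide list. The longest of XHet, from 76371 to 78321, was covered over 96.2%, and that of YHet, from 327316 to 329047, was in no other list.

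By length, replicate 1 regions of the Het sequences met replicate 2 in 3 of 4 cases at 10 kb or more, 8 of 15 between 5 and 10 kb, 6 of 70 between 2 and 5 kb and 2 of 120 under 2 kb. The shares of the short classes were 8.57% (exact interval 3.21 to 17.7%) and 1.67% (0.20 to 5.89%). Here too 1 shared bp was enough, which favours long regions. The 190 regions that met none lay a median of 223 kb from the nearest replicate 2 region of their sequence. The median was 12.1 kb for the 95 on chromosome 4 and 5.57 kb for those on the major arms. Replicate 2 had 2.59, 32.5 and 43.0 regions per Mb on these parts. The distance depends on that density, and isolation beyond it was not tested. In all, 86.5% of the bases enriched in replicate 1 alone lay in these 190 regions, and 52.6% on chromosome 4 lay in the 95.

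Of the 56 series-wide regions on the Het sequences, 18 overlapped both replicates (32.1%, against 61.5% over the whole list). Another 30 (53.6%) overlapped replicate 1 alone and 8 (14.3%) overlapped neither. The whole-list shares for replicate 1 alone and for neither were not computed. By bases, replicate 1 alone accounted for 63.8% of the list there and neither for 7.96%, against 14.2 and 4.39% on the major arms. Median lengths were 5671 bp for the 18, 1991 bp for the 30 and 1062 bp for the 8, and median scores were 0.81, 0.44 and 2.16. The short regions in neither replicate list thus had the highest median score, with a range of 0.44 to 2.87. They comprised 3 on 2RHet, 4 on 3LHet and 1 on 3RHet. The highest-scored series-wide regions of 2RHet, from 1283114 to 1284252 (1.14 kb, score 2.87), and of 3LHet, from 571250 to 572250 (1.00 kb, score 2.74), were among these. On 3RHet the highest-scored one, from 1819224 to 1823718 (4.50 kb, score 1.07), overlapped both replicates. So did the longest series-wide region of each Het sequence, among them 594038 to 601430 on 3LHet (7.39 kb), 2474588 to 2482322 on 3RHet (7.74 kb) and 24940 to 31538 on 2LHet (6.60 kb).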

How the data were processed

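Chromatin from nuclei of crosslinked larvae was immunoprecipitated and sequenced, per the labels' protocols. Reads were aligned with Bowtie 0.12.7, per the submitters' processing notes. Not given in the sources used here were the region caller, its threshold, the handling of reads with several placements and the making of the series-wide list. The authors deposited 3 lists of regions, 1 per ChIP replicate and 1 for the series, in FlyBase release 5 coordinates, with sequence lengths, per the file headers. A single depleted region of replicate 2 was left out. Each deposited region has a start, an end and a score, which is a log2 value: 2 raised to score differences gave ratios of whole numbers (denominator at most 2000, relative tolerance 1e-11) for 95.1%, 83.7% and 82.6% of the regions of replicate 1, replicate 2 and the series-wide list, and for at most 1.13% with other bases. Scores were ranked within a list only.

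Input samples have no list used here, and read depth is unknown. Coverage is enriched bases over header length. Overlap needed at least 1 bp. Groups joined regions over gaps of up to 5 kb. Intervals are exact Clopper-Pearson 95% intervals. No chance test was made. The interval functions were tested on 20 simulated pairs of lists and recovered coverage, shared bases and counts in 20. Computation used Python 3.11.15, NumPy 2.4.6 and SciPy 1.17.1. The members and all rules were chosen with earlier results of these data known. Regions named are, on chromosome 4, the 10 longest shared places, the 5 longest and 5 highest-scored of each replicate, the 5 longest in replicate 1 alone and the series-wide extremes; on each Het sequence, the longest and highest-scored of each list and the 3 longest shared places.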

Additional observations from a re-analysis of the deposited data

How the results depend on the processing

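The larger coverage of replicate 1 kept its direction in every setting tried. Cutting the replicate 1 list to its 5209 highest-scored regions, so that both lists were equally long, left coverage of 45.7% against 12.0% on chromosome 4 (ratio 3.82) and 5.91% against 0.66% on the Het sequences (8.97), with 1.00 on the major arms. With the upper-scoring 50% of each list the ratios were 5.83 and 17.9, and with regions of at least 2 kb 3.69 and 7.56. The equal-length cut kept 97.7% and 98.6% of the replicate 1 regions of these parts, against 79.1% on the major arms. The upper-scoring 50% kept 88.6% and 89.0% of them in replicate 1, against 43.2% and 41.7% in replicate 2. These 2 settings cut by the same score ranks, so they are no independent check of the direction. With 2 replicates this far apart the SD gives no check on the mean coverage: leaving out either replicate gives the other's value, from 12.0 to 46.1% and from 0.66 to 5.96%.

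Shared bases as a share of either on chromosome 4 were 17.1% with the upper-scoring 50%, 25.6% with equal lists and 26.9% with regions of at least 2 kb. On the Het sequences they were 4.77, 9.32 and 11.2% in these settings and 9.76% with regions within 1 kb joined. With the upper-scoring 50%, which shortens the lists, replicate 1 regions that met replicate 2 were 16 of 117 on chromosome 4 and 8 of 186 on the Het sequences, where the share over the whole list was also lower, 54.2%. Replicate 2 regions that met replicate 1 were 19 of 19 and 9 of 10, against 74.1% over the whole list. With at least 50% of the region covered, 12 of 132 replicate 1 regions counted on chromosome 4 and 10 of 209 on the Het sequences. With reciprocal overlap of at least 50%, 8 regions on chromosome 4 and 8 on the Het sequences matched in each direction. Under either rule no share over the whole list was computed, so these counts have no background. Groups on chromosome 4 in replicate 1 numbered 67 joined over 2 kb, 21 over 10 kb and 27 in the series-wide list; in replicate 2 they numbered 16 with the upper-scoring 50%. Overlaps cannot be recomputed with 1 replicate left out. No paired analysis was possible because there is 1 ChIP group and no input list was analysed here. With no read counts, a place absent from replicate 2 may be unmarked or below the authors' threshold.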
